A study of Saccharomyces cerevisiae with 15 samples.

Results

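The response of wild-type yeast to low glucose was measured on 1 of 15 arrays in the series, which held Saccharomyces cerevisiae cells moved to medium with 0.1% glucose for 20 minutes. The cells were strain ACY044, a wild type with a W303 background, of mating type a. Their polyadenylated RNA was labelled with Cy5 and compared, on the same 2-colour array, with RNA from mid-log cells of the same strain, labelled with Cy3. The array was found by its label, and 5223 genes, 3716 of them named, were used out of 6249 with a value on it. A gene was used when it also had a value on the wild-type nitrogen starvation, KCl and peroxide arrays, where dim spots were listed at 0 or left blank. The low glucose array kept a ratio for dim spots, so the other 1026 genes had no such check.

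Beside it stood 6 wild-type arrays of other single treatments of 20 minutes: hydrogen peroxide (0.4 mM), heat shock (42 °C), KCl (0.375 M), amino acid starvation, nitrogen starvation and rapamycin (200 nM). A further 4 arrays bear on glucose. On 2 of them wild-type cells had no glucose together with a second treatment, nitrogen starvation or 200 nM rapamycin. On the other 2, cells of strain ACY509, which lacks the SNF1 gene, were in 0.1% or 0.02% glucose. Each of these ratios was set against mid-log cells of the same genotype, so the snf1 ratios were over snf1 mid-log cells. No wild-type array of glucose removal alone was analysed here. Every condition had 1 array, so the values below are sizes with no error, no replicate check and no test. They are ratios of low glucose over mid-log on a log scale whose base the labels do not name; it was taken as 2, so that 1 stands for 2-fold. A gene is called higher or lower here when it is at least 2-fold away from mid-log.

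Budding yeast ferments glucose even when oxygen is present. While glucose is plentiful the repressor Mig1 keeps genes for other carbon sources off, and protein kinase A and TORC1 keep ribosome production high. When glucose falls, the kinase Snf1 inactivates Mig1 and turns on activators such as Cat8 and Adr1, while the sensors Snf3 and Rgt2 set which hexose transporters are made through the repressor Rgt1 and its corepressors Mth1 and Std1. Lower protein kinase A activity lets Msn2 and Msn4 enter the nucleus, where they activate stress genes.

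Of the 5223 genes, 760 (14.6%) were higher in low glucose by 2-fold or more, 953 (18.2%) were lower by as much, and 3510 lay between. At least 4-fold differences were found for 239 genes on the higher side and 221 on the lower side. The median was −0.12 and the values ran from −4.35 to 7.78, so the higher side reached further. With the array recentred on that median the counts were 884 higher and 815 lower. The ratios are relative to the other transcripts on the array, so a smaller share of the RNA and fewer molecules per cell cannot be told apart. The 61 control spots ranged from −4.04 to 2.21 with a median of −0.37, and 15 of them passed 2-fold on the higher and 19 on the lower side. Among the 20 highest named genes were those of sugar uptake (HXT7, HXT6, HXT17 and HXT2), lactate use (JEN1 and CYB2), hexose phosphorylation (HXK1) and breakdown of aromatic amino acids (ARO9 at 4.81 and ARO10 at 4.76). Among the 20 lowest were 8 members of the ribosome biogenesis list and genes of zinc uptake (ZRT1 at −4.35 and its activator ZAP1 at −3.83), nucleotide synthesis (URA7 at −4.19, AAH1 at −3.66, IMD4 at −3.25 and RNR1 at −3.35) and DNA polymerase alpha (POL1 at −3.20).

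**Figure D1:**
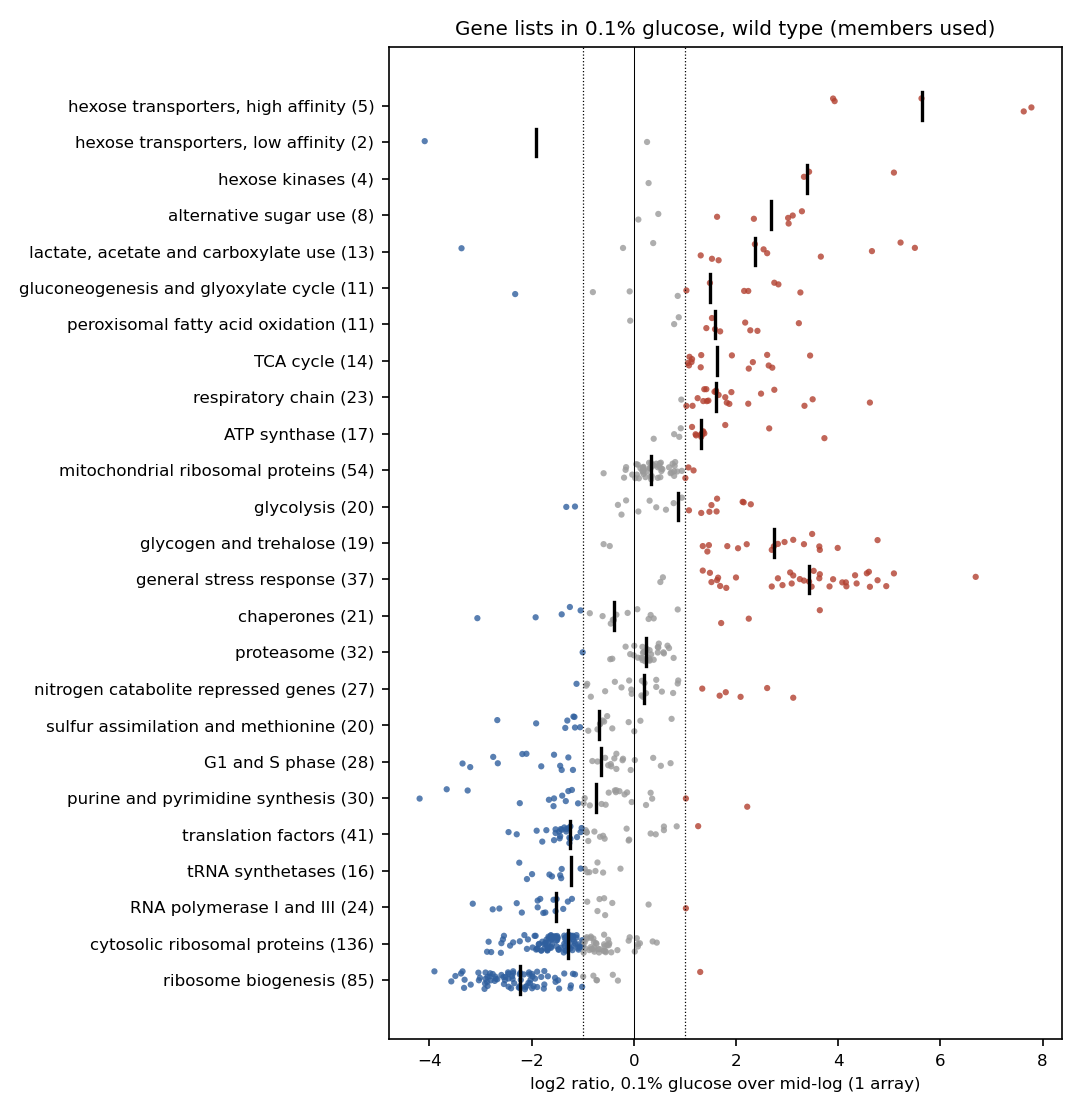
Each point is 1 gene of a named list and its log2 ratio in 0.1% glucose over mid-log on the wild-type array, with the number of members used in brackets, black bars at the list medians and dotted lines at 2-fold. Red points are at least 2-fold higher and blue points at least 2-fold lower: all 14 TCA cycle genes are red, and 78 of 85 ribosome biogenesis genes are blue.

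The genes that bring sugar into the cell parted by affinity. All 5 high-affinity or moderate-affinity hexose transporter genes used were at least 2-fold higher, and the other gene on the list, the galactose transporter gene GAL2, was left out for want of values elsewhere and stood at −0.07. HXT7 stood at 7.78 in low glucose. Its other values were −1.20 in peroxide, 1.26 at heat shock, 1.40 in KCl, 3.04 in amino acid and 1.72 in nitrogen starvation, and 1.04 with rapamycin. HXT6, a near-identical neighbour whose probe can share its signal, stood at 7.63, against −1.09 to 2.32 on the other 6 arrays. Low glucose was the highest of the 7 single treatments for both, and the copies cannot be told apart by these values. HXT2 stood at 5.63 in low glucose and between −2.32 and 1.31 elsewhere. HXT4 stood at 3.93 and between −2.17 and 0.25 elsewhere. HXT5, a transporter gene of slow-growing and stressed cells, behaved otherwise: at 3.90 it lay below its values in KCl (7.33) and at heat shock (6.12).

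The low-affinity transporter genes did not follow. HXT1, which codes for the transporter used when glucose is abundant, stood at −4.09 in low glucose. On the other 6 arrays it was at −1.41 in peroxide, −1.06 at heat shock, 1.19 in KCl, −2.04 in amino acid and −2.29 in nitrogen starvation, and −1.28 with rapamycin. Low glucose was thus the lowest of the 7, and KCl alone was above 0. HXT3, the other low-affinity gene, was within 2-fold of mid-log at 0.26. In the gene order of the RefSeq R64 annotation HXT1 lies next to HXT5 and is separated from HXT4 by 1 gene, AHT1, and HXT3 is separated from HXT6 by 1 gene, YDR344C. A high-affinity gene that was higher therefore sat beside a low-affinity gene that was not in both places. HXT17, of a group of closely similar transporter genes, stood at 5.72, but had no value at heat shock.

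Among the genes that sense glucose for the transporters, the pairs split as well. MTH1, a corepressor of Rgt1, stood at 2.66 in low glucose and between −2.48 and −0.31 on the other 6 arrays, the only one of the 7 arrays above 0. Its paralog STD1 was at −0.96. SNF3, the sensor for low glucose, was at 2.10, and RGT2, the sensor for high glucose, at −0.48. RGT1 itself was at 0.92, the casein kinase genes YCK1 and YCK2 at −0.16 and −0.30, and GRR1, for the ubiquitin ligase adaptor of the same route, at −1.12.

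The regulators of glucose repression differed less. Of 14 genes used, 3 were at least 2-fold higher and 1 was lower. SIP2 and SNF4, for a beta and the gamma subunit of the Snf1 complex, were at 1.44 and 1.01, and MIG1 at 1.03. NRG2, for a repressor, was at −2.11. SNF1 was at 0.64 and REG1, for the phosphatase subunit that turns Snf1 off, at 0.41, both within 2-fold. Downstream activators moved more. CAT8, for the activator of gluconeogenic genes, stood at 4.60 in low glucose. Elsewhere it was at 0.24 in peroxide, 1.13 at heat shock, 1.92 in KCl, 0.46 in amino acid and 1.34 in nitrogen starvation, and 1.84 with rapamycin. All 7 values were above 0, and low glucose was the highest by 2.68. ADR1, for the activator of alcohol and fatty acid genes, was at 3.54. HAP4, the regulated subunit of the activator of respiratory genes, was at 1.44, close to its heat shock value of 1.37 and against −1.92 to −0.86 on the remaining 5 arrays. The subunits that join Hap4, from HAP2, HAP3 and HAP5, were at 0.94, 0.35 and 1.07.

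Genes for taking up and using other carbon sources were largely higher. Of 8 used for other sugars 6 were at least 2-fold higher, with a median of 2.68. SUC2, for the secreted invertase, stood at 3.11 in low glucose. The gene was at −0.12 in peroxide, −0.40 at heat shock, −0.29 in KCl, 0.04 in amino acid and −0.15 in nitrogen starvation, and −0.25 with rapamycin. It was within 2-fold of mid-log on each of the other 6 arrays. The maltose genes MAL12, MAL11 and MAL33 were at 3.29, 3.03 and 3.02, and since the MAL loci are near copies of each other the source of that signal is uncertain. The galactose genes GAL1 and GAL10, whose expression also needs galactose, were at 0.48 and 0.09.

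Of 13 genes of lactate, acetate and carboxylate use, 10 were higher and 1 was lower (median 2.37). JEN1, for the lactate and pyruvate transporter, stood at 5.50 and between 0.20 and 2.13 on the other 6 arrays. CYB2, for the lactate dehydrogenase of the mitochondrial intermembrane space, was at 5.22, ATO2, for a membrane protein of ammonium export, at 4.66 and ACH1, for a mitochondrial CoA transferase, at 3.66. The exception was DLD3 at −3.37, a cytosolic 2-hydroxyglutarate transhydrogenase gene that marks the retrograde route from mitochondria to nucleus. The retrograde gene CIT2, for peroxisomal citrate synthase, was at −0.80, while the TCA cycle genes on the same list, CIT1, ACO1, IDH1 and IDH2, were at 1.09 to 2.71.

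Gluconeogenesis and the glyoxylate cycle had 7 of 11 genes higher and 1 lower (median 1.49). IDP2, for cytosolic isocitrate dehydrogenase, stood at 3.26 and between 0.11 and 0.81 on the other 6 arrays. MDH2 was at 2.83, ICL1 at 2.75 and FBP1, for fructose-1,6-bisphosphatase, at 2.24. PCK1, for the other enzyme that commits carbon to gluconeogenesis, was at 0.86, below its 2.49 in nitrogen starvation. MAE1, for the malic enzyme, was at −2.32. In peroxisomal fatty acid oxidation 8 of 11 genes were higher (median 1.59), led by the catalase gene CTA1 at 3.23 and ECI1 at 2.42. Each of these lists was above the 14.6% of all genes used, and PCK1, CIT2 and MAE1 show that their members did not move as 1 block.

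Mitochondrial energy metabolism was higher in nearly every gene used. All 14 TCA cycle genes used were at least 2-fold higher, from KGD1 at 1.06 to SDH4 at 3.45, with a median of 1.62. The median of the same 14 genes was 0.06 to 0.76 on the other 6 single-treatment arrays. SDH4, for a membrane anchor of succinate dehydrogenase, stood at 3.45 in low glucose. Under the other treatments it was at −0.56 in peroxide, 0.79 at heat shock, 1.31 in KCl, 0.94 in amino acid and 1.16 in nitrogen starvation, and 1.12 with rapamycin. The 4 succinate dehydrogenase genes, SDH1 to SDH4, lay at 2.25 to 3.45, and the other 10 genes ran from 1.06 to 2.71, with MDH1 and CIT1 at their top.

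Of 23 respiratory chain genes, 22 were at least 2-fold higher (median 1.61), and NDE1, for an external NADH dehydrogenase, was just under the threshold at 0.93. NDI1, for the internal NADH dehydrogenase that takes the place of complex I in yeast, was at 3.34. All 9 genes of complex III were higher, from COR1 at 1.38 to RIP1, for the iron-sulfur protein, at 2.75 (median 1.82). All 9 of complex IV were higher too, from COX5B at 1.15 to COX5A at 2.24 (median 1.43). COX5A codes for the aerobic and COX5B for the hypoxic form of the same subunit, so both forms stood above mid-log. For cytochrome c the order was the other way, with CYC7, for the hypoxic form, at 4.62 and CYC1, for the aerobic form, at 1.03.

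The ATP synthase had 13 of 17 genes higher (median 1.32). Its 14 subunit genes ran from ATP19 at 0.39 to TIM11 at 1.79, and 10 passed 2-fold. Of the 3 genes for inhibitor proteins and their stabilising factor, STF2 at 3.73 and STF1 at 2.65 stood above all the subunits. INH1 at 1.21 lay within the range of the subunits. Mitochondrial ribosomal proteins had 3 of 54 genes higher and none lower, with a median of 0.34, so this share (5.56%) was below the 14.6% of all genes used. The 3 that passed were MRPL38 at 1.17, MRP20 at 1.07 and MRPL6 at 1.01.

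Glycolysis, read from 20 genes, was mixed: 9 were higher and 2 lower (median 0.86). The upper enzymes were close to mid-log, with PGI1 at 0.31, PFK1 at 0.09, PFK2 at −0.24 and FBA1 at 0.44. Further down the pathway PYK2 at 2.29 was the highest, with PGK1 at 2.13, ENO1 at 2.15, TDH1 at 1.63, TDH2 at 1.52, TDH3 at 1.32 and ENO2 at 1.08, among near-identical copies that may share signal. TPI1 at 0.94, CDC19, for the main pyruvate kinase, at 0.78, GPM1 at 0.63 and GPM3 at −0.31 were within 2-fold. GCR1, for the activator of glycolytic genes, was at −1.32, and PFK27 was the other gene that was lower. ADH1 and ADH2, for the fermentative and the oxidative alcohol dehydrogenase, were close to each other at 1.95 and 1.71.

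Reserve carbohydrates had larger values. Of 19 genes of glycogen and trehalose metabolism 17 were at least 2-fold higher (median 2.74). Both directions of the route were included: the 5 glycogen synthesis genes were at 1.44 to 3.49, and the breakdown genes GPH1, for glycogen phosphorylase, and GDB1, for the debranching enzyme, at 4.77 and 3.99. The 4 trehalose synthesis genes were at 1.35 to 3.33 and the 3 trehalase genes at 1.47 to 2.04. GPH1 was the highest of the list, and on the other 6 arrays it was at 1.05 to 3.04. PGM1, for the minor phosphoglucomutase, and PIG2 were the members within 2-fold, at −0.47 and −0.59.

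Of 37 general stress genes 35 were at least 2-fold higher (median 3.43). The list shares members with several others, and of the 20 on no other list 18 were higher. DDR2, a gene of unknown function that Msn2 and Msn4 activate, was the highest of these at 6.69, against 4.28 to 7.47 on the other 6 arrays. Apart from HSP12, a membrane stabiliser at 3.52, the heat shock proteins lay below the list's median, with HSP42 at 1.69, HSP26 at 1.63, HSP104 at 1.52 and HSP78 at 0.52. Of 21 chaperone genes 3 (14.3%) were higher and 5 (23.8%) lower, shares near the 14.6% and 18.2% of all genes used, with a median of −0.39. HSP30 at 3.64, SSE2 at 2.25 and SSA3 at 1.71 were higher. SSA2, for a constitutive Hsp70, was at −3.06, YDJ1, for its partner J protein, at −1.92, and SSB1 and SSB2, which act on nascent chains, at −1.04 and −1.41. Of 28 redox defence genes 13 were higher, led by GPX1 at 3.71 and TSA2 at 3.40, and 1 was lower, and of 32 proteasome genes none was higher and 1, RPN2, was lower, just at the threshold.

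The side of growth was lower, most of all in ribosome assembly. Of 85 ribosome biogenesis genes 78 were at least 2-fold lower (median −2.23), against 18.2% of all genes used, and 1 was higher, SPB1 at 1.30. DBP2, for an RNA helicase, stood at −3.90 in low glucose. Elsewhere it stood at −1.83 in peroxide, −2.15 at heat shock, −3.08 in KCl, −2.73 in amino acid and −4.26 in nitrogen starvation, and −2.62 with rapamycin. UTP20 of the small subunit processome was at −3.57, KRE33, for an RNA acetyltransferase, at −3.49, ERB1 of large subunit assembly at −3.38 and NOP1, for the fibrillarin methyltransferase, at −3.31. DBP2 was below 0 on all 7 arrays, and the list median lay between −2.62 and −1.52 on the other 6, a range that holds the low glucose value.

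The machinery that makes ribosomal and transfer RNA had the same direction by subunit. On the list of RNA polymerases I and III, all 9 genes used for polymerase I and shared subunits were lower, from RPA14 at −1.57 to RPA135 at −3.15. All 7 for polymerase III were lower too, from RPO31 at −1.21 to RET1 at −2.29. The 7 initiation factor genes of polymerase I, RRN3 to RRN11, all lay within 2-fold, from −0.91 to 0.29. MAF1, for the repressor of polymerase III, was the 1 gene of the list that was higher, at 1.02. Of the 11 RNA polymerase II genes 3 were lower, RPB8, RPB10 and RPO26, which code for subunits that all the nuclear polymerases share. RPB5, on the same list and also for a shared subunit, was within 2-fold at −0.98.

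Cytosolic ribosomal proteins were lower by less. Of 136 genes taken by name 93 were at least 2-fold lower and none higher (median −1.28), and without RPP1, a subunit of RNase P that the name rule also takes, 92 of 135 were lower. Large subunit genes had a median of −1.35 and small subunit genes one of −1.19, and the 5 stalk genes were all within 2-fold, at −0.58 to 0.12. Most of these proteins come from a pair of near-identical copies. In 30 of 58 pairs with both copies used, both were at least 2-fold lower, and the copies differed by a median of 0.49. In 12 pairs they differed by at least 1, most for RPS29A at −2.36 and RPS29B at 0.06, and for RPS27A at −2.14 and RPS27B at −0.10. Probes for near-identical copies can share signal, so the value of each copy is uncertain.

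Translation factors were lower in 24 of 41 genes (58.5%, against 18.2% of all genes used) and higher in 1 (median −1.24). Initiation carried the count, with 16 of 24 genes lower, led by TIF5 at −1.90 and TIF4631, for the scaffold eIF4G, at −1.71. Elongation factors had 3 of 10 lower, with EFB1 at −2.45, and 1 higher, the eIF5A gene HYP2 at 1.26, while TEF1 and TEF2, for eEF1A, were at 0.59 and 0.84. Of 16 aminoacyl-tRNA synthetase genes 9 (56.2%) were lower and none higher, the lowest being MES1 at −2.24.

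Genes of amino acid synthesis were mostly below mid-log, and part of them passed the threshold. Of 15 for arginine and glutamate 5 (33.3%) were lower and 1 higher, and of 7 for lysine 4 (57.1%) were lower. Of 18 for histidine and the aromatic amino acids 7 (38.9%) were lower and 1 higher. For sulfur and methionine 8 of 20 (40.0%) were lower. Of all genes used 18.2% were lower and 14.6% higher. The median of the sulfur list was −0.68 in low glucose, against 2.89 in nitrogen starvation and 3.68 in amino acid starvation. ARG3, for ornithine carbamoyltransferase, stood at −3.76 in low glucose. In the other treatments it was at 1.53 in peroxide, 1.22 at heat shock, −1.69 in KCl, 2.03 in amino acid and −1.74 in nitrogen starvation, and −1.25 with rapamycin. It was the named gene furthest below the other 6 arrays, and SAM2, for an S-adenosylmethionine synthetase, was another at −2.67, against −1.31 to 0.32. ARO9 and ARO10, which break down aromatic amino acids, went the other way, and were also high in KCl, at 4.32 and 3.92.

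Nitrogen genes show how far low glucose stayed apart from nitrogen starvation. Of 27 genes repressed by good nitrogen sources 6 (22.2%, against 14.6% of all genes used) were higher and 1 was lower. Their median was 0.21, against 3.0 in nitrogen starvation and 3.43 with rapamycin. PUT1, for proline oxidase, was at 3.12, and GDH2, for the glutamate dehydrogenase that releases ammonium, at 2.61. DAL5, a permease gene for allantoate, was at 0.55 in low glucose and at 8.33 in nitrogen starvation, and MEP2, for an ammonium transporter, was at −1.12 and 5.16. Among the allantoin genes DAL4, for the allantoin permease, was higher at 1.34, and DAL1, DAL2, DAL3, DAL5 and DAL7 were within 2-fold. PUT2, for the step after PUT1, was at 0.44, and CHA1, for the enzyme that breaks down serine and threonine, at −0.84. Genes of amino acid breakdown were not counted as a list, and those named here, with ARO9 and ARO10 above, include both higher genes and genes within 2-fold.

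Cell cycle and nucleotide genes were on the lower side. Of 28 genes of G1 and S phase 12 (42.9%, against 18.2% of all genes used) were lower and none higher (median −0.64). RNR1, for ribonucleotide reductase, was at −3.35, POL1 at −3.20, and the cyclin genes CLB6 and CLN2 at −2.75 and −2.66. CLN3, the upstream G1 cyclin gene, was at −0.34, and SIC1, for an inhibitor of S phase cyclin kinase, at 0.72. Of 30 purine and pyrimidine genes 12 (40.0%) were lower and 2 (6.67%) higher, against 18.2% and 14.6% of all genes used. The 2 higher genes were URA10 at 2.22 and URA8 at 1.02. In the signalling list 5 of 33 genes (15.2%) were higher and 4 (12.1%) lower, shares near or below those of all genes used, so the list as such did not stand out. BCY1, for the inhibitory subunit of protein kinase A, was at 1.77, and its catalytic subunit genes TPK2 and TPK3 were at 1.63 and −1.59. SCH9, for the kinase that TORC1 activates, was at −1.13 and FHL1, for a regulator of ribosomal protein genes, at −1.24.

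Isozyme genes were compared in 58 pairs chosen for a shared enzyme or function, some after values on this array had been seen. In 38 pairs the members lay at least 1 log2 unit apart and in 20 at least 2, with a median gap of 1.44. Pairs of unrelated genes were not counted, so whether isozyme genes part more than other genes was not tested. In 5 pairs 1 member was at least 2-fold higher and the other at least 2-fold lower: ALD4 at 4.80 with ALD5 at −1.62, TKL2 at 4.94 with TKL1 at −1.44, URA8 at 1.02 with URA7 at −4.19, TPK2 with TPK3, and PFK26 at 1.62 with PFK27 at −1.15. HXK1, for the hexokinase of poor carbon sources, stood at 5.09, and HXK2, for the hexokinase of growth on glucose, at 0.29. The same kind of gap was found for DAK2 at 5.40 and DAK1 at 0.95, for GND2 at 4.16 and GND1 at −0.55, for PGM2 at 3.64 and PGM1 at −0.47, and for CIT1 at 2.71 and CIT2 at −0.80. The pentose phosphate pathway as a list, with 3 of 11 genes higher, 2 lower and a median of −0.55, held both TKL2 and GND2 on its higher side and TKL1 on its lower side.

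**Figure D2:**
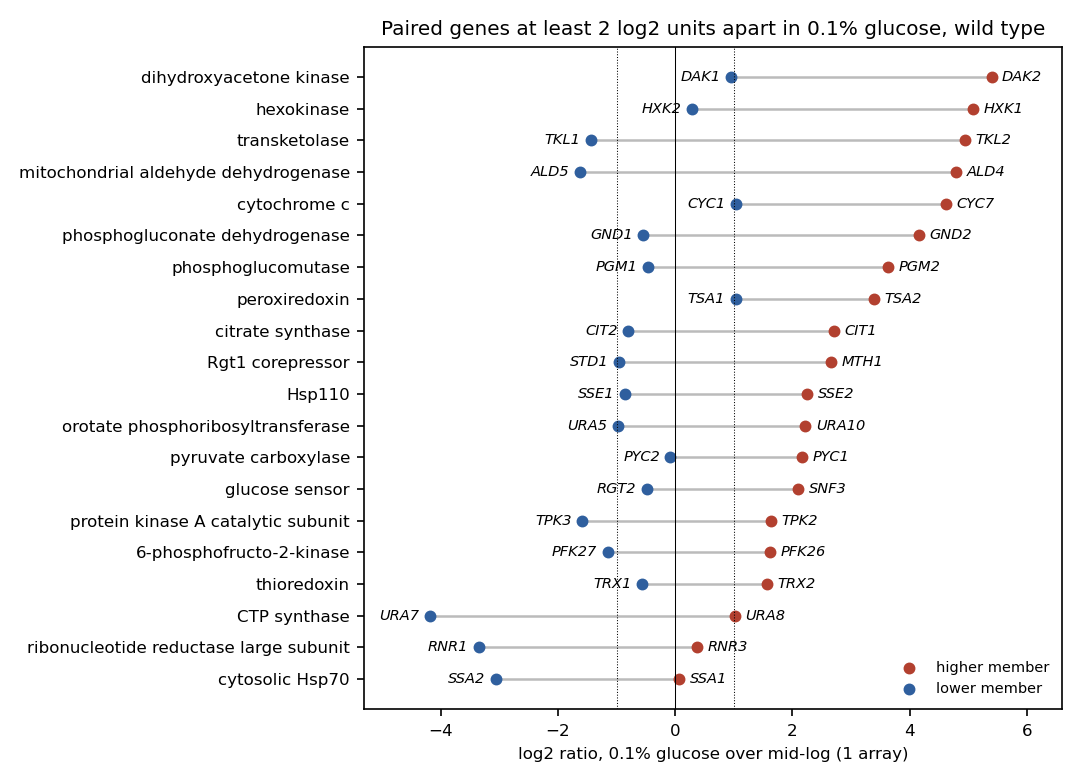
Each row joins the 2 genes of a pair by their log2 ratios in 0.1% glucose over mid-log on the wild-type array, for the 20 pairs at least 2 units apart. Red marks the higher and blue the lower member of a pair, and dotted lines mark 2-fold. The widest gap is that of ALD4 at 4.80 and ALD5 at −1.62.

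Set against the other 6 single treatments, low glucose lay beyond all of them for a small share of the genes. Of 4832 genes with a value on all 7 arrays, 61 (1.26%) were above the highest of the other 6 by at least 1, and 12 (0.248%) were below the lowest by at least 1. Taken the same way, heat shock had 192 genes above the other treatments, peroxide 38, and the other arrays 12 to 24. Below the others there were 92 genes at heat shock, 79 in peroxide, 47 in nitrogen starvation, 19 with rapamycin, 18 in KCl and 1 in amino acid starvation. Low glucose was thus second to heat shock on the higher side and next to last on the lower side. Low glucose was the highest of the 7 arrays for 645 of the 4832 genes and the lowest for 698. Some array has to be the highest and some the lowest for each gene, so these counts do not set low glucose apart. Of the 61 genes 44 had a name, and only named genes were ranked by gap. Among these the widest gaps were those of HXT6 (5.31), HXT7 (4.74), HXT2 (4.32), HXT4 (3.68), JEN1 (3.37) and SUC2 (3.07). Then came MTH1 (2.97), ISF1 (2.79), CAT8 (2.68), MAL33 (2.48) and IDP2 (2.45). Of the genes just named, all but ISF1 are on the lists of sugar uptake and sensing, other carbon sources or their regulators described above, and these are the same values. The next widest gaps of named genes were those of CSR2 (2.33), which is on no list, SDH4 (2.14), NDI1 (1.9) and GUT1 (1.76).

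**Figure D3:**
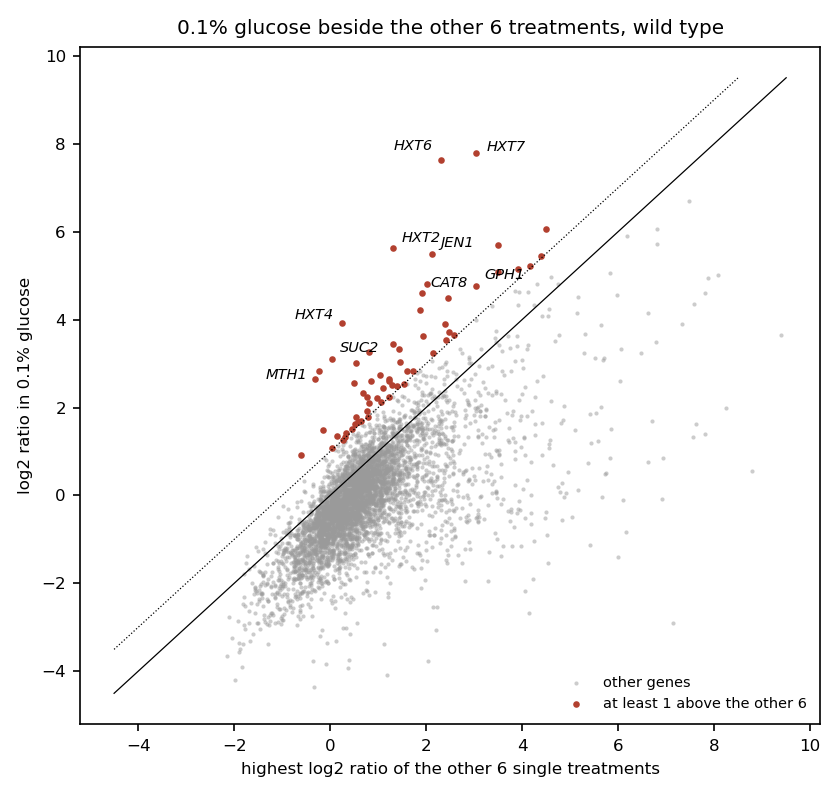
Each point is 1 of the 4832 genes with a value on all 7 wild-type single-treatment arrays, its log2 ratio in 0.1% glucose plotted against its highest log2 ratio on the other 6. The solid line marks equal values, the dotted line a gap of 1, and the 61 red points lie on or above the dotted line, with HXT6 and HXT7 furthest from it.

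The lists differ in how many of those genes they hold. The TCA cycle had 6 of 14 genes above the other 6 arrays by at least 1, the respiratory chain 6 of 21 with a value on all 7 arrays, the ATP synthase 3 of 16, and the high-affinity transporters 4 of 5. The general stress list had 2 of 35 and glycogen and trehalose 1 of 19. Ribosome biogenesis, with 71 genes on all 7 arrays, and cytosolic ribosomal proteins, with 136, had no gene above or below the others by that margin. Of all 4832 genes only 1.26% were above and 0.248% below by that margin, so finding none below in these lists is near the share of all genes. Of the 12 genes below the others 6 had a name: ARG3, HXT1, SAM2, DAM1, a kinetochore gene at −0.96, BET5, of vesicle transport, at −1.90, and FAP1 at −1.83.

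**Figure D4:**
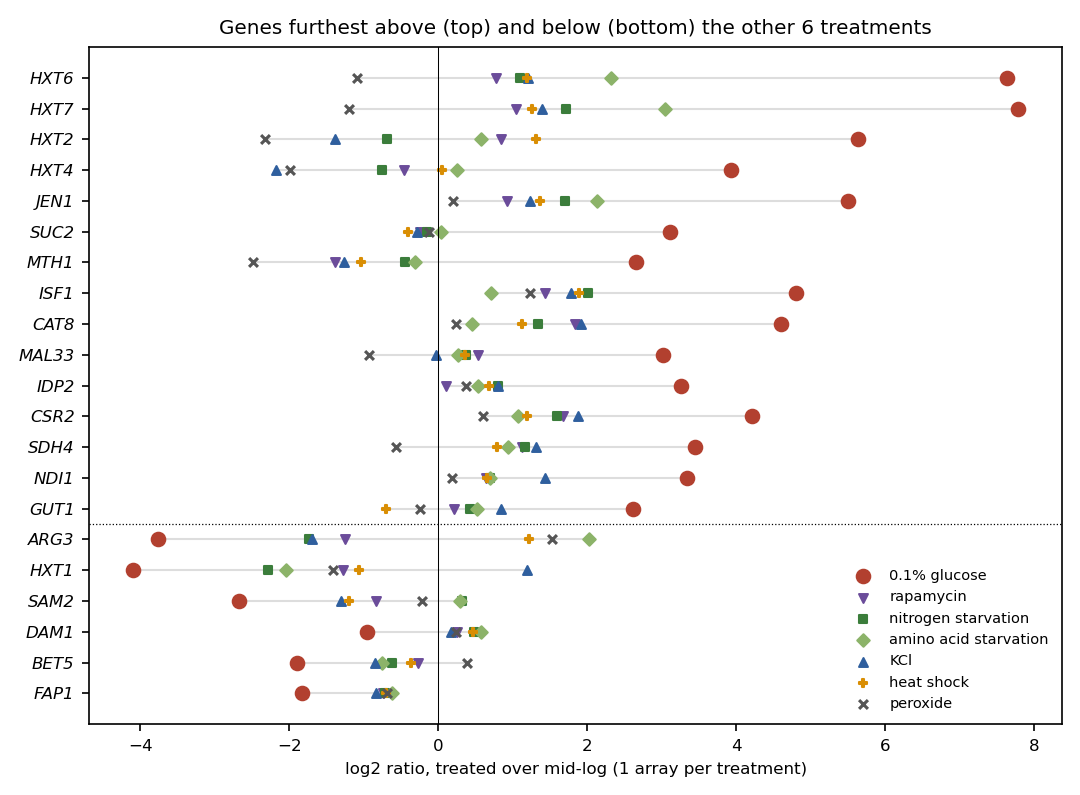
Each row is 1 gene with its log2 ratio on the 7 wild-type single-treatment arrays, low glucose in large red circles. The 15 named genes with the widest gap above the other 6 arrays are over the dotted line, from HXT6 with a gap of 5.31, and the 6 named genes at least 1 below the others are under it.

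Cells with no glucose at all, which also lacked nitrogen or had rapamycin, did not have the larger values throughout. Of the 5223 genes 251 (4.81%) were at least 1 higher in 0.1% glucose than on both of those arrays, and 296 (5.67%) at least 1 lower than on both. With each array recentred on its median these counts were 188 and 357. The SD over genes was 1.21 in 0.1% glucose, 1.10 without nitrogen and glucose and 1.00 without glucose and with rapamycin. Ribosome biogenesis had 33 of 85 genes lower than on both arrays and none higher, and its medians were −2.23, −1.31 and −1.11. General stress genes had 18 of 37 higher than on both, glycogen and trehalose 10 of 19, the respiratory chain 10 of 23 and the TCA cycle 6 of 14. The TCA cycle medians were 1.62 in 0.1% glucose and 0.50 and 0.55 on the other 2 arrays.

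The reverse held for some genes of other carbon sources. JEN1 was at 5.50 in 0.1% glucose, 6.94 without nitrogen and glucose and 6.75 without glucose and with rapamycin. ADY2, for an acetate transporter, was at 2.61, 5.46 and 4.95, and ADH2 was at 1.71, 3.49 and 2.79. HXT1 and ZRT1 did not follow these genes, and lay further from mid-log in 0.1% glucose. HXT1 was at −4.09 in 0.1% glucose and at −0.71 and 0.47 on those arrays, and ZRT1 at −4.35 against −0.34 and 0.62. Of the 5 high-affinity transporter genes 3 were at least 1 higher in 0.1% glucose than on both arrays: HXT7 (7.78 against 5.80 and 5.52), HXT6 (7.63 against 6.48 and 6.04) and HXT4 (3.93 against 2.04 and 2.64). HXT2 was at 5.63, 5.67 and 5.10, and no glycolysis gene was 1 higher or lower than on both. The second treatment differs together with the glucose level on these arrays, so the part of each cannot be told apart.

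In snf1 cells in 0.1% glucose several list medians were nearer 0 than in the wild type. They were 0.81 for the TCA cycle, 0.84 for the respiratory chain and 2.21 for the high-affinity transporters. Cytosolic ribosomal proteins were at −0.38 and ribosome biogenesis at −1.20. Other medians were further from 0, as for glycolysis, at 0.86 in the wild type and 0.98 in snf1 cells. The G1 and S phase medians were −0.64 in the wild type and −1.12 in snf1 cells. SUC2 was at 0.42, JEN1 at 1.57, CAT8 at 1.75 and HXK1 at 3.81 in those cells, against 3.11, 5.50, 4.60 and 5.09 in the wild type. In 0.02% glucose the snf1 medians were 0.39 for the TCA cycle, 0.66 for the respiratory chain, 0.79 for the high-affinity transporters, −0.40 for cytosolic ribosomal proteins and −0.55 for ribosome biogenesis. The ribosomal protein value was the one of these that was not nearer 0 than in 0.1% glucose. Each strain was set against its own mid-log cells, so these ratios do not compare levels between the strains. Strain and array cannot be told apart with 1 array of each.

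**Figure D5:**
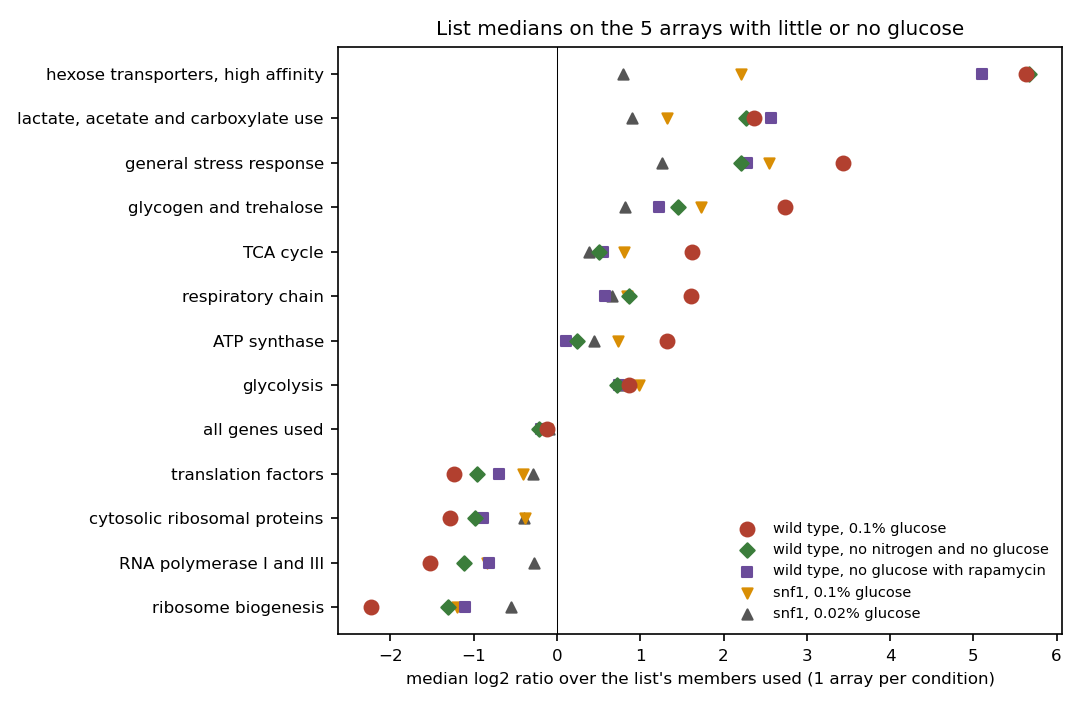
Each row gives the median log2 ratio over the members used of 1 gene list on 5 arrays with little or no glucose, 1 marker per array, with the median of all 5223 genes for comparison. Wild-type cells in 0.1% glucose (large red circles) have the most extreme median for ribosome biogenesis (−2.23), the general stress response (3.43) and the TCA cycle (1.62), while the high-affinity transporters have medians of 5.63, 5.67 and 5.10 on the 3 wild-type arrays.

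Of the 1026 genes left out 158 were higher and 240 lower, with a median of −0.18, and some belong to the groups above. Of the hexose transporter genes left out HXT13 was at 6.99 and HXT15 at 3.22, while HXT11 was at 0.56, HXT14 at −0.87 and GAL2 at −0.07. POT1, for the peroxisomal thiolase, was at 6.19, SIP18 at 5.48, SOL4 at 4.16, NDE2 at 4.12 and SFC1, for a succinate and fumarate carrier, at 3.05. On the lower side RPA43, for an RNA polymerase I subunit, was at −3.39 and PWP2 of the small subunit processome at −3.30. A gene bright only in low glucose is left out by requiring a value on 3 other arrays, so the counts above may miss such genes. The a-specific genes STE2 (−0.64), MFA1 (0.35) and MFA2 (−0.91) were within 2-fold and BAR1 was at −1.46, but a ratio gives no level, so the mating type could not be checked from them.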

How the data were processed

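The deposited table held log2 values, 1 column per array, made by the authors as ratios of Cy5 over Cy3 and rounded to 2 decimals. The log base is not named in the labels and was taken as 2; the steps before that (spot filter, background, normalisation) are not stated in the sources used here. Treated cells were in Cy5 except on the peroxide array, per the labels, and that array was turned. Exact zeros were read as no value on arrays with more than 500 of them, and a gene with an exact zero or a blank on the nitrogen starvation, KCl or peroxide array was left out whatever the number of zeros there. The number of columns left unused was 0.

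Of 6256 gene probes 4075 had 1 symbol, 0 had several and 2181 had none, with 129 symbols updated and 4071 matched to RefSeq R64. Probes of a gene were averaged (7 genes), which left 6249 genes or probes, 4068 named. A value of at least 1 or at most −1 counted as 2-fold, and a gap to other arrays of at least 1 was used. Gene lists, isozyme pairs and the choice of genes were made with earlier results of these data known, and the isozyme pairs, the subgroups of lists and the comparison with total glucose removal were added after values had been seen. Named were members that illustrate a list, the 20 highest and 20 lowest named genes, and the 15 widest gaps of named genes on each side. Genes named from those left out were chosen after their values were seen. List members without a value among the 5223 genes used are not in the counts. Counting was tested on simulated data. Precision is limited by the 1 array per condition, so no test was made. Python 3.11.15, pandas 2.3.3, numpy 2.4.6 and scipy 1.17.1 were used. The alternatives tried were other sets of genes, recentring, rescaling, another log base, leaving out the peroxide array and keeping zeros.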

Additional observations from a re-analysis of the deposited data

Results flagged for a closer look

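Of the 5223 genes used, 4 were at least 2-fold away from mid-log in opposite directions in wild-type and in snf1 cells in 0.1% glucose. Each strain was set against its own mid-log cells, and the difference was not tested, with 1 array of each. ALD6, for cytosolic aldehyde dehydrogenase, was at 1.15 in the wild type and −1.02 in snf1 cells. ARG4, for argininosuccinate lyase, was at −1.22 and 1.32. GPP1, for glycerol-3-phosphatase, was at −1.67 and 1.16. TPO2, for a polyamine transporter, was at −2.53 and 1.68.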

How the results depend on the processing

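With named genes only, 457 of 3716 genes were at least 2-fold higher, against 760 of all 5223 genes used. Fewer genes were counted, and the share was smaller too, since 303 of the 1507 probes without a name were higher. The count of higher genes ranged from 670 to 1078 over the 6 alternatives, apart from the 457. The count of lower genes ranged from 765 to 1401. Read as natural logs, the shares past 2-fold were 81.6% lower for cytosolic ribosomal proteins and 22.2%, 94.1% and 100% higher for mitochondrial ribosomal proteins, ATP synthase and respiratory chain. The respiratory chain share was also 100% with the array recentred on either median, since NDE1 then passed. The genes above the other 6 treatments numbered 50 to 71 and those below 9 to 16 over 4 alternatives. The recentred and rescaled counts against total glucose removal and the ribosomal protein share without RPP1 were chosen after seeing the data. No paired analysis was possible because each condition has 1 array. The promoter motif alternative was not run, since promoter sequences were not used here. Limits: 1 array without replicates, an unstated log base and normalisation, and dim spots that kept a ratio.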

Other observations

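Several other gene groups were read from the same array, each by sizes alone, beside 14.6% of all genes used that were higher and 18.2% that were lower. In glycerol metabolism 5 of 9 genes were at least 2-fold higher and 1 was lower (median 1.71). On the breakdown side the values ran from DAK1 at 0.95 upward, with DAK2, for a dihydroxyacetone kinase, at 5.40, GCY1 at 4.33, GUT2, for the mitochondrial glycerol-3-phosphate dehydrogenase, at 3.50 and GUT1, for glycerol kinase, at 2.61. On the synthesis side GPD1 and GPD2, for the dehydrogenases, were at 1.71 and 0.14, and GPP1 and GPP2, for the phosphatases, at −1.67 and 0.19. Of 20 genes of autophagy and vacuolar proteases 6 were higher and 1 lower, with APE1 at 2.09 and ATG8, for the protein that coats autophagosomes, at 1.99, against ATG41 at −2.89.

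Among 20 amino acid permease genes 6 were higher and 2 lower, from SAM3 at −1.94 to AGP2 at 2.54. Ergosterol synthesis had 7 of 26 genes lower (26.9%) and 1 higher, with ERG3, for the sterol C-5 desaturase, lowest at −1.86. Aspartate, serine and glycine synthesis had 7 of 19 (36.8%) lower and 1 higher. Branched-chain amino acid synthesis had 2 of 10 (20.0%) lower and 1 higher, and this list was near the share of all genes. Of 10 histone genes 1 was lower, HTB2 at −1.35. In the proton pump list PMA1, for the plasma membrane ATPase, was at −0.10 and its minor paralog PMA2 at 1.68. Of the 1507 probes without a gene name 303 were at least 2-fold higher and 188 lower, with a median of 0.08 and a highest value of 6.31.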
